A study of Rattus norvegicus with 32 samples.

Results

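RNA granules are particles of mRNA and protein that carry transcripts from the cell body into dendrites and hold them there in a translationally quiet state. Their RNA-binding proteins choose the cargo, couple it to microtubule motors and release it for translation near synapses. The genes described here encode 10 such proteins: FMRP, the RNA-binding repressor of translation that is lost in fragile X syndrome (Fmr1), its paralogues (Fxr1, Fxr2), the double-stranded RNA-binding Staufen proteins (Stau1, Stau2), the single-strand-binding Pur proteins (Pura, Purb), the granule assembly proteins Caprin1 and G3bp2, and the Pumilio repressor Pum2. They were chosen by name, and 9 of the 10 were found among 17216 gene rows of the deposited tables; Pura was not analysed here. What was measured is the mRNA of these genes, not their proteins.

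The cells were wildtype hippocampal neurons of Sprague Dawley rats, taken at embryonic day 18, cultured for 15 days and labelled as pyramidal neurons, with no treatment named. From each of 16 neurons the soma and the dendrites were aspirated with separate micropipettes, giving 16 soma and 16 dendrite libraries after 3 rounds of linear amplification of polyadenylated RNA. Each library comes from 1 compartment of 1 cell. Cells were taken on more than 1 day and from more than 1 culture, and no label links a neuron to either.

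Soma libraries held between 878125 and 24721811 gene counts and dendrite libraries between 229149 and 24439768, and the dendrites were the shallower library in 14 of 16 neurons. Levels are given as CPM, a library's counts scaled to a total of 1000000 gene counts, without correction for transcript length, so levels are compared between libraries and not between genes. A count of 0 allows a level of up to 3 counts of the total, which was between 0.121 and 13.1 CPM depending on the library. This limit covers counting error only, since amplified reads are not independent molecules.

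Some libraries stood apart. The dendrites of neuron 20 resembled those of neuron 13, with a Spearman correlation of 0.449 between profiles centred within compartments, against 0.154 for the next most alike dendrite pair, and had the lowest scaling factor of all libraries (0.159, the next being 0.659). For the soma of neuron 7, its own dendrites were less alike (0.088) than those of neuron 9 (0.258). Likewise the soma of neuron 9 was less like its own dendrites (0.066) than those of neuron 7 (0.162), and that of neuron 8 less like its own (0.191) than those of neuron 9 (0.229). A closer match to another number was not particular to these cells: 7 of 16 somata were most like their own dendrites, and 7 of 16 dendrites most like their own soma. Neuron 25 had the shallowest library of each compartment. Paired results rest on the labelled numbers and are therefore given also without neurons 7, 8 and 9 and without neurons 20 and 25, and the fold changes also without 6 neurons chosen by markers as described next.

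Of the markers of the labelled cell type, Neurod6, which encodes a transcription factor found in pyramidal neurons, reached 10 counts in each of the 32 libraries. Slc17a7, a vesicular glutamate transporter, reached that count in only 5 soma and 2 dendrite libraries, whereas Slc17a6, another such transporter, did so in 11 and 8. Gad1, an enzyme of GABA synthesis, reached it in 7 and 11, whereas Gad2, another such enzyme, did so in 2 and 2. Summed markers of inhibitory neurons reached 13307 CPM in a soma and 3136 CPM in dendrites, against at most 5502 and 4594 CPM for pyramidal markers, although the medians were 60.9 and 59.2 CPM for inhibitory and 1358 and 879 CPM for pyramidal markers. The inhibitory sum exceeded the pyramidal sum in 7 of 32 libraries, against the label: the somata of neurons 8 and 9 and the dendrites of neurons 7, 8, 15, 18 and 20. Only in neuron 8 was this so in both compartments, and in the others the partner library had the higher pyramidal sum. The sums were close in the dendrites of neuron 18 (1306 against 1247 CPM). In the dendrites of neuron 20 both were low (21.8 against 15.3 CPM). The 13 astrocyte markers summed to between 65.8 and 839 CPM in soma (median 318) and between 75.8 and 3191 CPM in dendrites (median 564), higher in dendrites in 11 of 16 neurons. Of these markers 6 were at 0 in 16 or more libraries, among them Gfap, Aqp4 and Aldh1l1, and 4 were at 0 in 3 or fewer, namely Mt3, Glul, Aldoc and Sparcl1. Summed markers of endothelial, mural and fibroblast cells had medians of 8.22 CPM in soma and 94.0 CPM in dendrites. The sum was higher in dendrites in 13 of 16 neurons. Of these markers Dcn reached 10 counts in 9 soma and 8 dendrite libraries, Sparc in 10 and 12, and Lum in 2 and 5. Cldn5 and Rgs5 were at 0 in all 32 libraries, Pdgfrb in 30, Flt1 in 28 and Pecam1 in 25. The 9 microglia markers summed to at most 0.126 CPM in soma and 19.5 CPM in dendrites. The part of these cells in the levels below was not tested.

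The first question was which of the granule protein mRNAs the soma and the dendrites held. Pum2 alone was present with 10 or more counts in all 32 libraries. Stau2 followed with 28 libraries, Caprin1 with 26, Fmr1 and Fxr2 with 24 each, and Stau1 with 23. The remaining genes were seen in a minority: Purb in 13 libraries, G3bp2 in 8 and Fxr1 in 7. Among the 4916 genes tested further on, the median gene reached this count in 23 libraries, and 550 genes (11.2%) reached it in all 32.

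Counts spanned a wide range. Fxr2 had 1000 or more counts in 14 libraries, a lower count above 0 in 15 and 0 in 3. Stau1 had 1000 or more in 7, a lower count in 20 and 0 in 5, and Fmr1 in 5, 24 and 3. Purb had 1000 or more in 5, a lower count in 14 and 0 in 13. Over the 6 granule protein genes tested further on, 6.77% of values were 0 and 38.0% were 1000 or more, against 14.8% and 31.0% over all tested genes. Synthetic ERCC transcripts, added to the samples as a reference, also varied in presence. Their CPM was scaled to gene counts, and their total was between 1110 and 231023 counts per library. Their mean levels are therefore only roughly comparable with those of genes. The 11 ERCC transcripts with a mean between 20 and 200 CPM reached 10 counts in 4 to 28 libraries, with a median of 17, and the 5 granule protein genes in that range of mean CPM (Fmr1, Stau1, Stau2, Purb, Caprin1) did so in 13 to 28. The 7 ERCC transcripts with a mean between 200 and 2000 CPM reached it in 29 to 32 libraries. Fxr2, with a mean of 215 CPM, reached it in 24 libraries, below that range, and Pum2, with a mean of 526 CPM, in 32. Among tested genes, the median was 22 libraries for means of 20 to 200 CPM and 31 for 200 to 2000 CPM. The part of amplification and sampling in the pattern of presence was not tested beyond these values.

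**Figure D1:**
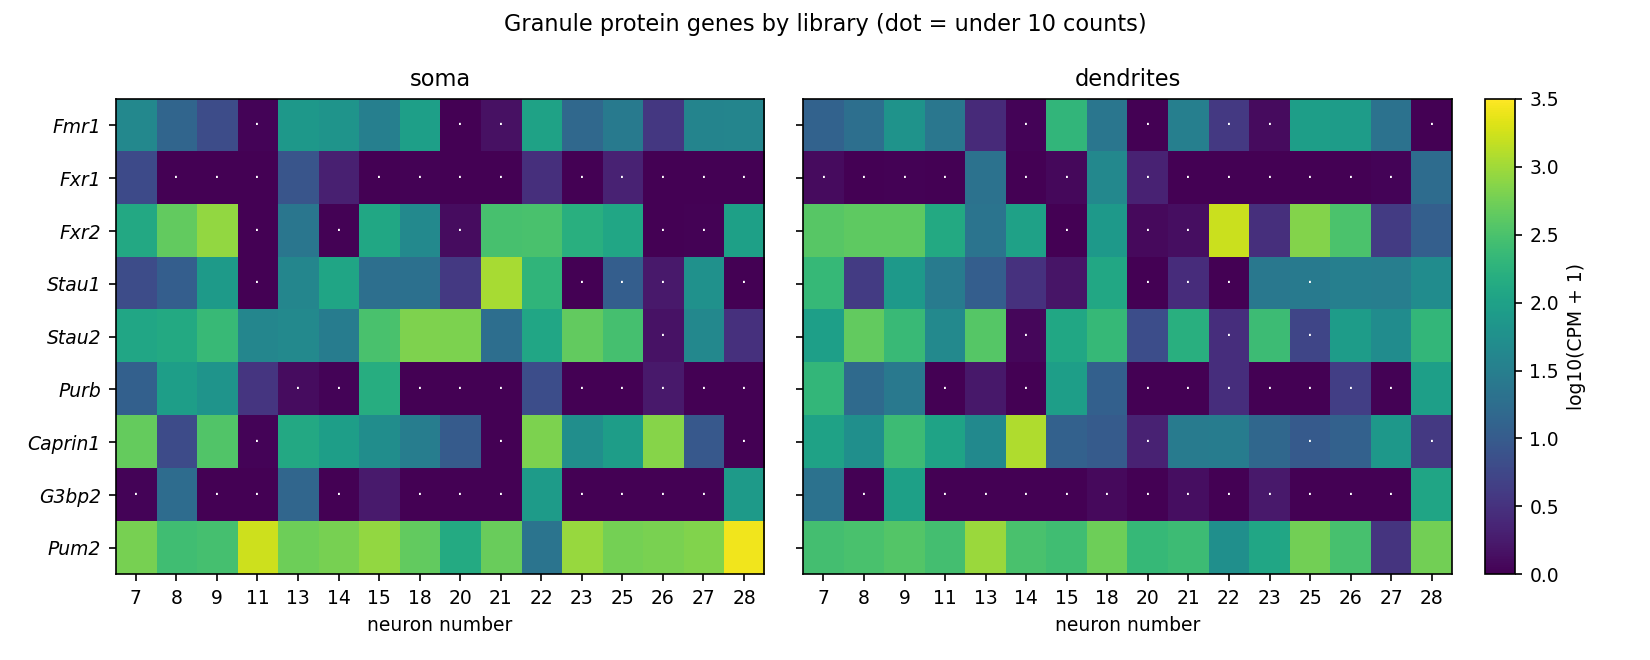
Level of each granule protein gene in each library, as log10(CPM + 1) by colour, with genes in rows and neurons in columns, soma on the left and dendrites on the right; a white dot marks fewer than 10 counts. The row of Pum2 has no dots, while G3bp2 has 10 or more counts in only 5 soma and 3 dendrite libraries, and Fxr1 in 4 and 3.

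The number of these 9 genes with 10 or more counts was between 3 and 9 in a soma library (median 5.5) and between 2 and 8 in a dendrite library (median 6). Dendrites held more of them than the soma of the same cell in 6 neurons, fewer in 6 and as many in 4. With every library thinned to 1071293 counts and a minimum of 5 counts, which left 15 neurons, the numbers were 5.60 ± 1.99 genes in soma and 5.53 ± 1.92 in dendrites (SD, n = 15), with more in dendrites in 5 neurons, fewer in 6 and as many in 4.

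At that equal depth, detection did not differ detectably between the compartments for any of the 9 genes (exact McNemar test, two-sided, adjusted p = 1.00 for each). Of all 10036 genes in this test, 0 passed an adjusted p of 0.05 (0%), and 51 had an unadjusted p under 0.05 (0.508%). Stau1 was detected in both compartments of 6 neurons, in the soma only of 5 and in the dendrites only of 4. Fmr1 was detected in both compartments of 7 neurons, in the soma only of 5 and in the dendrites only of 2. Fxr2 was found in both compartments of 8 neurons, in the soma only of 2 and in the dendrites only of 3. Stau2 and Caprin1 were each found in both compartments of 11 of 15 neurons, and Pum2 in both of all 15. Each gene other than Pum2 was thus found in the soma only of some neurons and in the dendrites only of others. Fxr1, Purb and G3bp2 were in the soma only of 1, 1 and 3 neurons and in the dendrites only of 2 each. They were in neither compartment of 11, 8 and 9. No such split over all genes is given here. At full depth and 10 counts, Stau1 was in the soma only of 3 neurons and the dendrites only of 4 without neurons 7, 8 and 9, and in 2 and 4 without neurons 20 and 25. For Fmr1 these numbers were 4 and 2 in both cases.

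**Figure D2:**
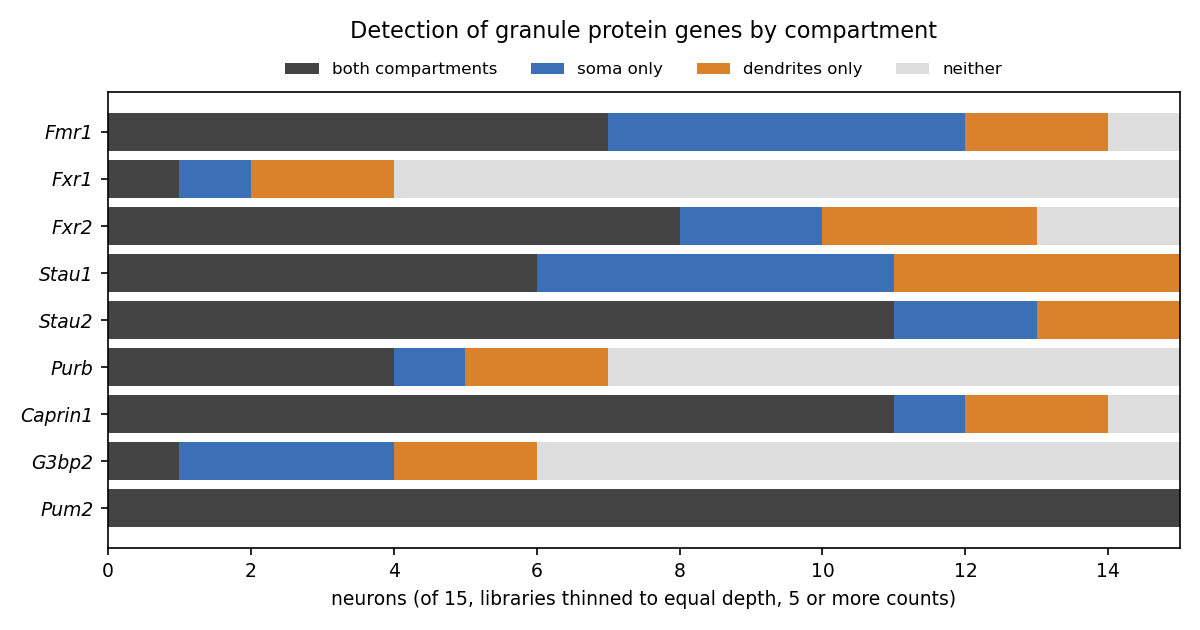
Number of neurons (horizontal axis, of 15) in which each gene had 5 or more counts in both compartments, in the soma only, in the dendrites only or in neither, after thinning all libraries to the same depth. Pum2 was detected in both compartments of all 15 neurons, and Fxr1 in neither compartment of 11.

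The fragile X family came first. Fmr1 stood between 0 and 102 CPM in soma, with a median of 28.6 CPM, and between 0 and 199 CPM in dendrites, with a median of 18.9 CPM. The highest soma value was in neuron 22 and the highest dendrite value in neuron 15, and the soma range lay within the dendrite range. In neuron 20 Fmr1 had a count of 0 in both libraries, where the counts of 0 allow up to 0.486 CPM in the soma and 0.697 CPM in the dendrites.

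Fxr2, whose protein can bind FMRP, stood between 0 and 842 CPM in soma (median 107 CPM) and between 0 and 1658 CPM in dendrites (median 87.1 CPM). The highest soma value was in neuron 9 and the highest dendrite value in neuron 22. Neuron 26 had a count of 0 in the soma and 375 counts in the dendrites, whereas neuron 15 had 2969 counts in the soma and 0 in the dendrites. High and low libraries were thus found in both compartments.

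Fxr1, the paralogue best known from muscle, reached 10 counts in the soma of neurons 7, 13, 14 and 22, with 78, 150, 23 and 42 counts. It reached them in the dendrites of neurons 13, 18 and 28, with 385, 715 and 23 counts. Its highest levels were 7.26 CPM in soma and 42.2 CPM in dendrites, and neuron 13 was the only cell with 10 or more counts in both. Fxr1 did not pass the filter on low counts and was not tested.

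Taken as a family, 10 or more counts of Fmr1, Fxr1 or Fxr2 were present in 14 of 16 soma and 15 of 16 dendrite libraries. Fmr1 and Fxr2 occurred together in 19 of 32 libraries, Fmr1 without Fxr2 in 5, Fxr2 without Fmr1 in 5, and neither in 3.

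The Staufen proteins bind double-stranded RNA and move with granules along microtubules. Stau2, the paralogue enriched in brain, was between 0.480 and 663 CPM in soma (median 117 CPM) and between 0.162 and 457 CPM in dendrites (median 107 CPM). No library had a count of 0 for Stau2, and the lowest were the soma of neuron 26 with 2 counts and the dendrites of neurons 14 and 22 with 2 each and of neuron 25 with 1. Stau1, the more widely expressed paralogue, was between 0 and 1109 CPM in soma (median 14.04 CPM) and between 0 and 223 CPM in dendrites (median 25.2 CPM). The soma of neuron 21 held 66.9% of the CPM of Stau1 summed over all soma libraries: the soma mean was 104 ± 273 CPM (SD, n = 16) and 36.5 CPM without that library, against 39.4 ± 59.2 CPM in dendrites. The mean of Stau1 was therefore higher in soma with that library, and its median was higher in dendrites. Both Staufen genes had 10 or more counts in 22 libraries, Stau2 alone in 6, Stau1 alone in 1 and neither in 3.

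Purb encodes a Pur protein known from kinesin-associated granules. It had 10 or more counts in 6 soma and 7 dendrite libraries, with highest levels of 149 CPM in the soma of neuron 15 and 207 CPM in the dendrites of neuron 7. Both compartments held it in 4 neurons, which were 7, 8, 9 and 15, and neither held it in 7. Neurons 7, 8 and 9 are among those whose libraries were closer to another number, and without them Purb was present in both compartments of 1 of 13 neurons. Purb was not tested, since it did not pass the filter.

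Caprin1 encodes a granule assembly protein that binds G3BP proteins and FMRP. Its level was between 0 and 720 CPM in soma (median 52.2 CPM) and between 1.16 and 1194 CPM in dendrites (median 28.3 CPM). The dendrites of neuron 14 held 61.5% of the CPM summed over all dendrite libraries, and the dendrite mean of 121 ± 293 CPM (SD, n = 16) was 49.9 CPM without that library, against 166 ± 242 CPM in soma. G3bp2, a paralogue of the stress granule protein G3bp1, was at 0 in 20 of 32 libraries and present in the soma of neurons 8, 13, 15, 22 and 28 and in the dendrites of neurons 7, 9 and 28. Where it reached 10 counts, its level was between 0.769 and 83.5 CPM in soma and between 20.02 and 113 CPM in dendrites. Neuron 28 was the only cell with it in both, and G3bp2 was not tested. Caprin1 was present without G3bp2 in 20 libraries and together with it in 6.

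Pum2 encodes a repressor that binds a short motif in the untranslated regions of its target mRNAs and restrains dendrite outgrowth. It stood between 21.5 and 2644 CPM in soma (median 594 CPM) and between 2.37 and 938 CPM in dendrites (median 293 CPM). Its mean was 716 ± 643 CPM in soma (SD, n = 16) and 336 ± 229 CPM in dendrites. The highest soma value was in neuron 28 and the lowest in neuron 22, and the lowest dendrite value, 58 counts, was in neuron 27. The ranges overlapped, and Pum2 was lower in dendrites than in the soma of the same cell in 10 of 16 neurons.

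**Figure D3:**
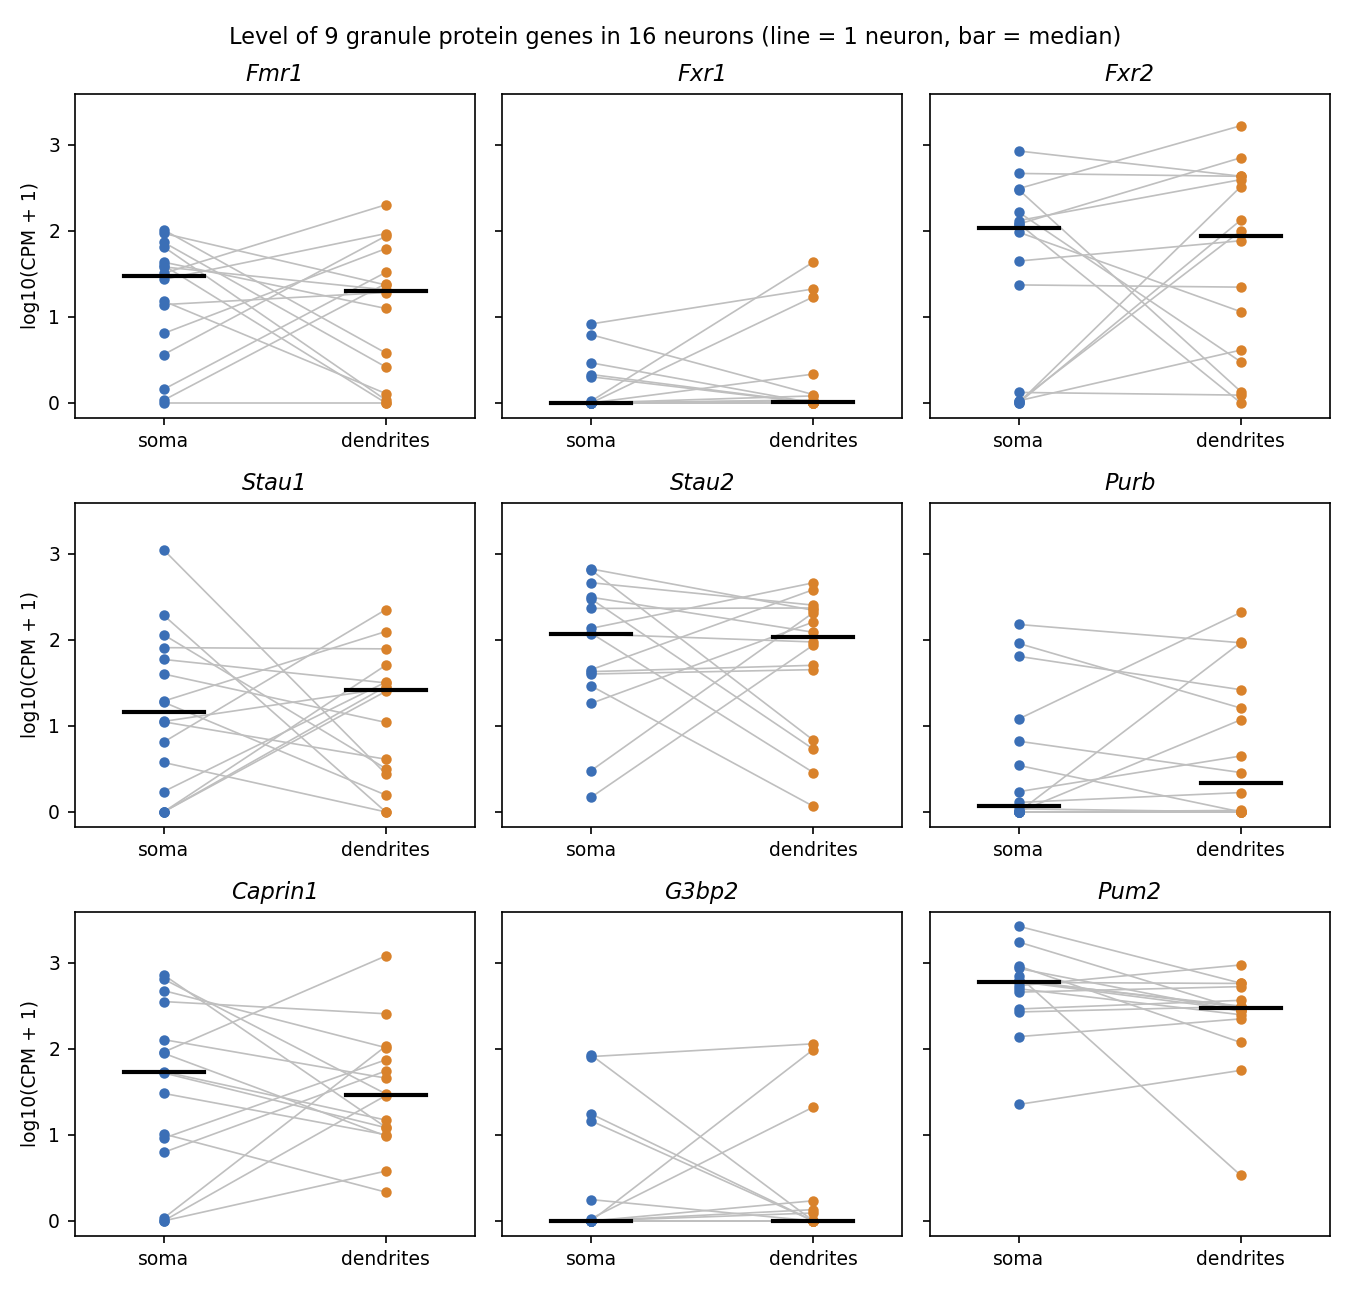
Level of each of the 9 genes as log10(CPM + 1) in the soma (blue) and dendrites (orange) of 16 neurons; a grey line joins the libraries of 1 neuron, and the black bar is the median. For Fmr1, Fxr2, Stau1, Stau2, Caprin1 and Pum2 the lines run in both directions. Pum2 was higher in dendrites in 6 of 16 neurons, and its median was 594 CPM in soma and 293 CPM in dendrites.

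The second question was whether relative abundance differed between a neuron's dendrites and its soma. For 0 of the 6 tested granule protein genes did the difference pass the test (edgeR quasi-likelihood test with the neuron as a block, Benjamini-Hochberg adjusted p = 0.999 for each). Of all 4916 tested genes, 0 passed (0%), and 129 had an unadjusted p under 0.05 (2.62%). None of these 129 was a granule protein gene. Limma-voom also called 0 genes, whereas the DESeq2 Wald test called 403, none of them among the 6. Changes were planted in simulated counts with the depth and spread of these libraries. Of these, edgeR found 2.06% of 97 at 4-fold and 33.0% of 94 at 16-fold, so most planted differences of those sizes were not detected. These are shares over genes drawn at random in a single simulation. They do not give the limit for a given gene, since the SE given below was 0.64 for Pum2 and 2.09 for Stau1.

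The largest of the 6 values by its error was that of Pum2. Its log2 fold change, dendrites over soma, was -0.88 ± 0.64 (SE, n = 16), with an edgeR unadjusted p of 0.178. The mean difference in log2 CPM of Pum2 was -1.13 ± 2.25 (SD, n = 16 neurons), with an unadjusted p of 0.0348 and an adjusted p of 0.912 (exact sign-flip permutation test, two-sided). Unadjusted p-values under 0.05 in this test were found for 256 of 4916 genes (5.21%), and 0 genes passed after adjustment (0%). The difference of Pum2 rested in part on neuron 27, where it was -8.10. Without that neuron it was -0.67 (unadjusted p = 0.0696 in the exact permutation test). With TMM-scaled log2 CPM over all 16 neurons it was -1.08 (unadjusted p = 0.0923 in the exact permutation test). Relative to spike-in counts Pum2 differed by -1.19 ± 2.13 (SD) in log2 and was lower in dendrites in 11 of 16 neurons (exact permutation p = 0.0252 unadjusted and 1.00 adjusted). In that test 160 of 4916 genes (3.25%) had an unadjusted p under 0.05, and 0 passed after adjustment (0%). Without neurons 20 and 25 the unadjusted p of Pum2 in the exact permutation test relative to spike-ins was 0.0555.

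The other values were small beside their errors. Fxr2 had a log2 fold change of 0.94 ± 1.58 (SE), with 8 of 16 neurons higher in dendrites. Fmr1 stood at -0.74 ± 1.93 and was higher in dendrites in 7 neurons, with 1 neuron at 0 in both. Stau2 was at -0.35 ± 1.16 (8 of 16 neurons higher in dendrites), Caprin1 at -0.14 ± 1.47 (6 of 16) and Stau1 at 0.06 ± 2.09 (7 of 16). For Caprin1 the mean difference in log2 CPM was positive, 0.25 ± 4.30 (SD), against the sign of its fold change, and for Stau1 it was -0.06 ± 5.80. Of the 6 fold changes 4 were negative, with a median of -0.24, while 45.2% of all tested genes were negative and their median was 0.13.

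Without neurons 7, 8 and 9 the log2 fold changes were -1.12 for Pum2, 1.31 for Fxr2, -1.38 for Fmr1, -0.73 for Stau2, -0.33 for Caprin1 and -0.38 for Stau1. Without neurons 20 and 25 they were -1.14, 0.64, -1.11, 0.36, 0.40 and 0.37 in the same order. Without neurons 7, 8, 9, 15, 18 and 20, which hold the libraries with more inhibitory than pyramidal marker counts, they were -1.55, 2.51, -2.23, 0.26, 1.04 and 0.58, and 0 genes passed (edgeR, 99 at an unadjusted p under 0.05). The signs of Pum2, Fxr2 and Fmr1 stayed as they were in these 3 fits, those of Stau2 and Caprin1 turned in the second and the third, and that of Stau1 in the first.

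**Figure D4:**
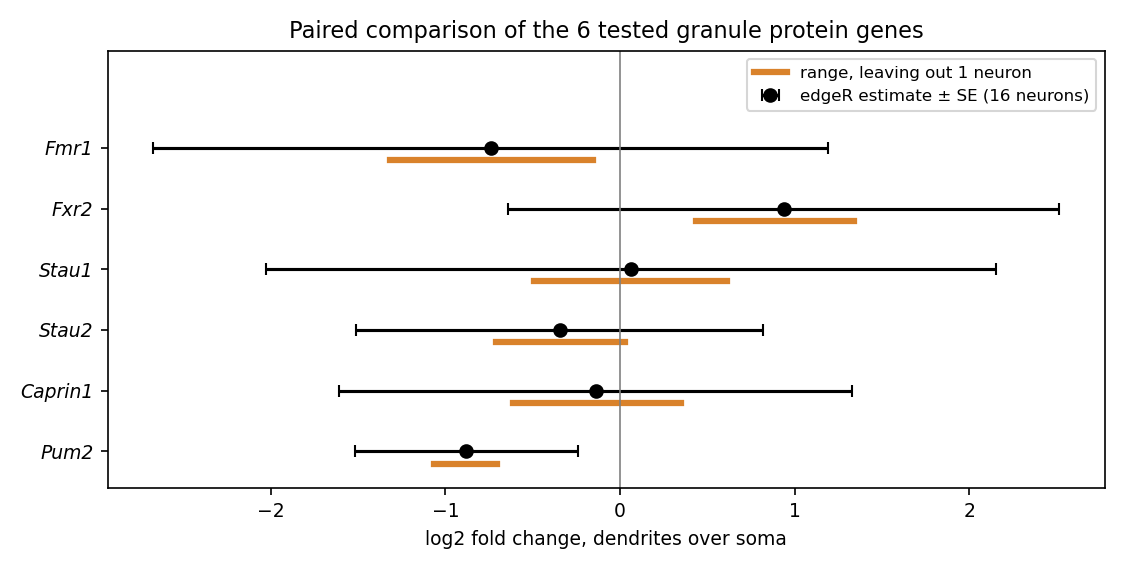
Log2 fold change, dendrites over soma, of the 6 tested genes (black points, bars are the SE over 16 neurons) and the range of the fold change in the 16 fits that each left out 1 neuron (orange). The bars of Fmr1, Fxr2, Stau1, Stau2 and Caprin1 span 0 and that of Pum2 does not. A bar of 1 SE is not a test: the edgeR unadjusted p of Pum2 was 0.178, and no gene passed after adjustment.

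Differences within single neurons were large in both directions. In log2 CPM, Fxr2 ranged from -9.54 in neuron 15 to 10.97 in neuron 26, and Stau1 from -10.21 in neuron 22 to 8.26 in neuron 28. In each of these 4 pairs 1 compartment had a count of 0, so the size was set by the prior count. Set against 3 counts in the library at 0, Fxr2 was 771-fold higher in the soma of neuron 15 and 451-fold higher in the dendrites of neuron 26. On the same footing Stau1 was 68.5-fold higher in the soma of neuron 22 and 131-fold higher in the dendrites of neuron 28. These values allow for counting error only and are not lower bounds on the difference between compartments. Fxr2 was more than 8-fold higher in dendrites in 4 neurons and more than 8-fold higher in soma in 4, and Stau1 in 5 and 5. Fmr1 passed 8-fold toward dendrites in 4 neurons and toward soma in 5, Stau2 in 4 and 4, and Caprin1 in 6 and 3. Pum2 passed 8-fold toward dendrites in 0 neurons and toward soma in 1. These tallies use log2 CPM and include pairs in which a library was at 0. Set against 3 counts, Caprin1 in neuron 28 was only 7.38-fold higher in dendrites. Stau1 in neuron 20 was only 3.955-fold higher in soma, yet each is among the tallied pairs. The share of such pairs over all tested genes is not given here.

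The SD of the pair difference, which also depends on the prior count where a library was at 0, was 6.01 for Fxr2 and 5.80 for Stau1, larger than in 91.6% and 88.2% of the tested genes, whose median was 4.47. It was 4.71 for Fmr1, 4.30 for Caprin1 and 4.29 for Stau2. For Pum2 it was 2.25, smaller than in most tested genes (percentile 9.85).

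How far the level in a soma followed that in its own dendrites was described by rank. Over 16 neurons, the Spearman correlation of log2 CPM between the compartments was -0.32 for Stau1, -0.28 for Fmr1, 0.04 for Pum2, 0.17 for Stau2, 0.23 for Caprin1 and 0.25 for Fxr2. The median over all tested genes was 0.08. The libraries of 1 neuron also shared depth, with a correlation of 0.52 between their gene counts. These correlations describe 16 cells and were not tested.

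The granule protein genes were also set against each other across libraries. Over 32 libraries, centred within compartments, the 15 pairs among the 6 tested genes had Spearman correlations between -0.20, for Caprin1 with Pum2, and 0.27, for Fmr1 with Stau1. Their median was 0.06, against 0.09 among 2000 genes drawn from those tested. The genes most like each of them, among 2424 genes with 10 or more counts in at least 24 libraries, were Ampd2 (0.73) and Txnrd1 (0.72) for Caprin1, Cep19 (0.68) and Tmem256 (0.64) for Stau2, Apc2 (0.66) and Dad1 (0.66) for Stau1, Actl6b (0.65) and Cfap20 (0.64) for Fxr2, Aacs (0.63) for Pum2, and Snn (0.62) and Fam45a (0.61) for Fmr1. These are the highest of many correlations over libraries that share depth and composition, and they were not tested.

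Other genes of RNA granules were taken from a list. Of 64 companion genes sought, which encode further granule proteins, translational repressors, helicases and the kinesin-1 heavy chains, 56 were among the rows and 42 were tested. Of these 18 had a positive and 24 a negative log2 fold change, with a median of -0.07 against 0.13 over all tested genes, and 0 passed an adjusted p of 0.05 (edgeR). An unadjusted p under 0.05 was found for 1 of the 42 (2.38%), against 2.62% of all tested genes, so the share was near that background. This gene was Ybx1, which encodes the Y-box protein that packages mRNA. Ybx1 was between 61.7 and 489 CPM in soma (median 144 CPM) and between 62.8 and 1628 CPM in dendrites (median 260 CPM), with the higher value in the dendrites of 14 of 16 neurons. Its log2 fold change was 1.15 ± 0.55 (SE, edgeR adjusted p = 0.999).

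Next by p-value among companion genes with positive values were Kif5b, a kinesin-1 heavy chain, at 2.24 ± 1.46 (SE), and Ago1, an Argonaute protein of microRNA-guided repression, at 1.12 ± 1.26. The smallest p-values among negative ones were those of the RNA helicase gene Ddx5 at -1.52 ± 0.91, Nufip1, whose protein can bind FMRP, at -2.29 ± 1.67, and Lsm14a, a P-body protein gene, at -1.83 ± 1.74. Ddx5 had 10 or more counts in 16 soma and 14 dendrite libraries, Nufip1 in 15 and 9, and Lsm14a in 13 and 8. Like Pum2, the companion genes Ybx1, Hnrnpu, Hnrnpk, Khdrbs3, Pabpc1 and Cyfip2 had 10 or more counts in all 32 libraries. Cyfip2 encodes a partner of FMRP, and Pabpc1 the main cytoplasmic poly(A)-binding protein.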

How the data were processed

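Polyadenylated RNA of 16 somata and of the dendrites of the same 16 neurons was sequenced as 75-base paired-end stranded libraries, per the labels' protocols. For each library the authors deposited whole-number counts for 17216 gene rows and 92 ERCC spike-in rows, and the file names point to exon counting with VERSE. The submitters' processing notes name build rn6. Not given in the sources used here were the aligner, the annotation, and how strand and multiply matching reads were handled. Coordinates were left out because the gene table used was of another build.

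Samples were grouped by title, and the series text says that equal numbers mark 1 cell, so the neuron was a block. As a check, soma and dendrites of 1 neuron correlated by 0.067 on average and those of different neurons by -0.00057, and 2 of 16 neurons exceeded 0.1. No libraries of a compartment agreed within sampling noise (chi-square over its degrees of freedom at least 61.0).

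Library sizes excluded spike-in rows. Genes passed edgeR's filterByExpr by compartment (minimum count 10), leaving 4916 genes with 91.8% to 97.2% of the counts of a library. Dendrites were tested against soma with edgeR 4.0.16 in R 4.3.3 (TMM, estimateDisp, robust glmQLFit, glmQLFTest). P-values were adjusted by Benjamini-Hochberg over all tested genes, at 0.05. The SE was taken as |log2 fold change| divided by √F. Log2 CPM used library totals and a prior count of 2. Spike-in ratios were log2 of (count + 0.5) over the ERCC total. Paired differences were tested by exact sign-flip permutation, with a smallest possible p of 3.05e-05. The sources used here do not say when spike-ins were added. Counts were thinned to 1071293 per library, which left out neuron 25. In the blocked fit and the paired tests, p-values are set against how far the difference between soma and dendrites varied between neurons. Each compartment of a neuron gave 1 library, so technical noise is part of that spread.

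Alternatives were no block, DESeq2 size factors, other filters, DESeq2 1.42.0, limma-voom 3.58.1, other pseudocounts and count minimums, and leaving out neurons. TMM-scaled log2 CPM, fits without neurons 7, 8, 9, 15, 18 and 20, and full-depth detection without neurons 7, 8 and 9 or 20 and 25 were added after seeing the data. Scripts were tested on simulated data. The genes and lists were chosen with earlier results of these data known. The text names all members, companion and cargo genes with an adjusted p under 0.05 or among the 3 smallest p per direction, and the 2 most alike genes of each tested member; some results under these rules are not reported here. Companion genes present in every library were named after their values were seen.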

Additional observations from a re-analysis of the deposited data

How the results depend on the processing

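The count of genes past the threshold was 0 in the analysis as reported, 0 in each of the 16 leave-one-out fits, 1 without a filter on low counts and 403 with DESeq2, of which 273 were higher in dendrites. The gene called without a filter was Adam1a, named after its values were seen, with 10 counts in 1 soma and 4 dendrite libraries. Among granule protein genes 0 passed under any alternative. Pum2 and Fxr2 kept the sign of the fold change in every fit run. With no replicate block, Fmr1 was at 0.013 and Stau1 at -1.69 in log2. Signs also turned for Caprin1 with limma-voom (0.51), without neurons 20 and 25 (0.40) and without neurons 7, 8, 9, 15, 18 and 20 (1.04), for Stau2 without neurons 20 and 25 (0.36) and without those 6 neurons (0.26) and for Stau1 without neurons 7, 8 and 9 (-0.38). Leaving out 1 neuron gave ranges of -1.32 to -0.15 for Fmr1, 0.43 to 1.34 for Fxr2, -0.49 to 0.61 for Stau1, -0.71 to 0.031 for Stau2, -0.62 to 0.35 for Caprin1 and -1.07 to -0.71 for Pum2. The mean difference in log2 CPM turned for Stau1 at a prior count of 0.5 (0.059), without neurons 20 and 25 (0.14) and without the 6 neurons (0.16), for Stau2 without neurons 20 and 25 (0.41) and without the 6 neurons (0.11) and for Caprin1 at a prior count of 10 (-0.096). Leaving out 1 neuron it ranged from -0.61 to 0.62 for Stau1, -0.32 to 0.67 for Caprin1, -0.94 to -0.023 for Stau2, -1.14 to -0.16 for Fmr1, 0.016 to 1.38 for Fxr2 and -1.30 to -0.67 for Pum2. Relative to spike-ins Stau2 was at 0.53 without neurons 20 and 25. The difference in the number of neurons with detection, dendrites minus soma, turned for Fxr1 at full depth with all neurons and without neurons 20 and 25 (-1 each), for Stau1 at full depth, at full depth without neurons 7, 8 and 9 and at 1 or 20 or more counts (1 each), for Stau1 at full depth without neurons 20 and 25 (2) and for G3bp2 at 20 or more counts (1). The cause of these turns was not tested. Stricter filtering kept only Stau2 and Pum2 among the tested granule protein genes. Depth limits mainly neuron 25, where a count of 0 allows up to 13.1 CPM in the dendrites.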

Other observations

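Cargo mRNAs of dendritic granules, which encode proteins of synapses and of the dendritic cytoskeleton, were taken as a list of 30 genes, of which 24 were tested. Of these 12 had a positive and 12 a negative log2 fold change, dendrites over soma, with a median of -0.0021 against 0.13 over all tested genes, and 0 passed an adjusted p of 0.05 (edgeR), while 1 gene (4.17%) had an unadjusted p under 0.05, against 2.62% of all tested genes. Map1b, a microtubule protein gene and a classical target of FMRP, was between 1646 and 8828 CPM in soma (median 4677 CPM) and between 1744 and 15343 CPM in dendrites (median 6183 CPM). It had 10 or more counts in all 32 libraries. The cargo gene with an unadjusted p under 0.05 was Nrgn (edgeR adjusted p = 0.999), which had 10 or more counts in 8 soma and 10 dendrite libraries. Its medians were 0.453 CPM in soma and 4.60 CPM in dendrites, with 12 of 16 neurons higher in dendrites. The soma median was near the level that a count of 0 allows, whose median over libraries was 0.223 CPM. A postsynaptic scaffold gene, Shank1, had 10 or more counts in 5 soma and 8 dendrite libraries.

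The smallest p-values among negative ones were those of Gria2, an AMPA receptor subunit gene, at -1.06 ± 0.82 (SE, n = 16), Dlgap4, a postsynaptic scaffold gene, at -1.54 ± 1.22, and the neurotrophin gene Bdnf at -0.86 ± 0.88 (edgeR adjusted p = 0.999 each). Dlgap4 had 10 or more counts in 16 soma and 11 dendrite libraries, with medians of 58.6 and 25.3 CPM. Bdnf had medians of 325 CPM in soma and 105 CPM in dendrites.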
